A study of Mus musculus with 9 samples.

Results

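The comparison described here sets hormone-sensing (HR+) luminal cells of the mouse mammary gland at day 3 of pregnancy against the same cells of virgin mice. It compares the 3 arrays of day 3 with the 3 arrays of virgin, 6 of the 9 arrays of the series. The other 3 arrays, from day 7, enter the fit only in the spread of each probe. All probes were kept whose mean signal on the log2, quantile normalised scale reached log2 of 100, the background level of the study, at day 3 or in virgin. This left 17755 of 45281 probes, which cover 10836 of the 19057 genes that have a named probe. The remaining 2609 tested probes carry no gene name.

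All animals were FVB females (FVB/N in the methods) of 9 to 11 weeks. The day 3 animals were timed by mating and a vaginal plug, and the virgin animals, 11 weeks old, were in metestrus, the phase of the cycle that follows oestrus. Every animal, pregnant or virgin, had received the thymidine analogue EdU 24 hours before the glands were taken. Dead cells, CD45+ cells and stromal cells were excluded, luminal cells were gated on CD24 and CD49f, and the HR+ cells were gated on Sca1 and CD49b. From each animal 1000 cells were sorted, and RNA equal to that of 167 cells was amplified in 2 rounds and hybridised to 1 Illumina bead array. Each array is therefore 1 animal, and the spread between arrays holds animal, sort and amplification together.

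HR+ cells carry the receptors for oestrogen and progesterone. They sense these hormones and pass the signal to neighbouring cells through secreted factors such as RANKL, and in early pregnancy the gland grows side branches and the buds of the later alveoli. A cell that enters division first loads the MCM helicase on its origins, then copies its DNA, and later builds kinetochores and a spindle to part the chromosomes.

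Arrays correlated across the tested probes at 0.986 to 0.992 within day 3 and 0.966 to 0.976 within virgin, against 0.940 to 0.944 between the 2 stages. Probes are not independent replicates, and these values describe the arrays only. Before normalisation the mean intensity was 353 to 520 on the day 3 arrays and 284 to 316 on the virgin arrays. The standard deviation of a tested gene over 3 arrays had a median of 0.122 at day 3 and 0.192 in virgin. Each value is the signal of a sorted population, so a change in the number of cells that use a gene and a change in RNA per cell cannot be told apart. An exact permutation test of 3 arrays against 3 cannot give a p under 0.10. Calls therefore come from limma, a linear model whose spread for each probe is steadied by that of the others, with p adjusted by Benjamini and Hochberg over all tested probes. That spread was estimated from all 9 arrays, so the standard errors and adjusted p also draw on day 7.

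The call of a gene rests on its brightest tested probe, which had to differ by at least 2-fold with an adjusted p no higher than 0.10. At day 3, 320 genes were higher, which is 2.95% of the tested genes, and 341 were lower, which is 3.15%, so that 6.1% were called in either direction. Counts within the gene lists below are to be read against these shares. Counted by probe, named or not, 2.37% were higher and 2.57% lower. The 3 day 3 arrays lay wholly above the 3 virgin arrays in 317 of the 320 higher genes, and wholly below them in 334 of the 341 lower genes. Over all tested genes 36.4% had arrays that did not overlap in either direction. The larger changes were upward. A fold change of 4 or more was reached by 70 of the higher genes and 38 of the lower genes, and of 16 or more by 6 higher and 2 lower genes. The higher genes were dim in virgin, with a median log2 signal of 9.64 at day 3 and 7.92 in virgin. In 31 of them all virgin arrays, and in 50 the virgin mean, lay under a signal of 100, so that only a lower bound of the fold is known. Lower genes had median levels of 8.45 at day 3 and 9.87 in virgin. Of these, 4 had all day 3 arrays under 100, and 14 had a day 3 mean under it. Where a mean lay under 100, named genes are given as at least the difference to that level.

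The balance between the directions rests on the scaling. Before normalisation the median intensity lay under 100 on every array, at 90.9 to 99.3 at day 3 and 87.2 to 95.6 in virgin. Scaling to the same median therefore matches the arrays near the background level. With each array scaled to the same median in place of quantile normalisation, the median log2 fold change of the tested probes was 0.25 in place of -0.01. Then 1521 genes were higher and 90 lower, and higher genes made up 94.4% of the calls. All 320 higher genes stayed called under that scaling, and 90 of the 341 lower genes did. Directions below are those of the quantile normalised values, that is, relative to the other genes of the array, and where a gene followed through the alternatives lost its call under median scaling, this is given in its paragraph. None of the 156 called genes followed through the 22 alternative settings changed sign.

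**Figure D1:**
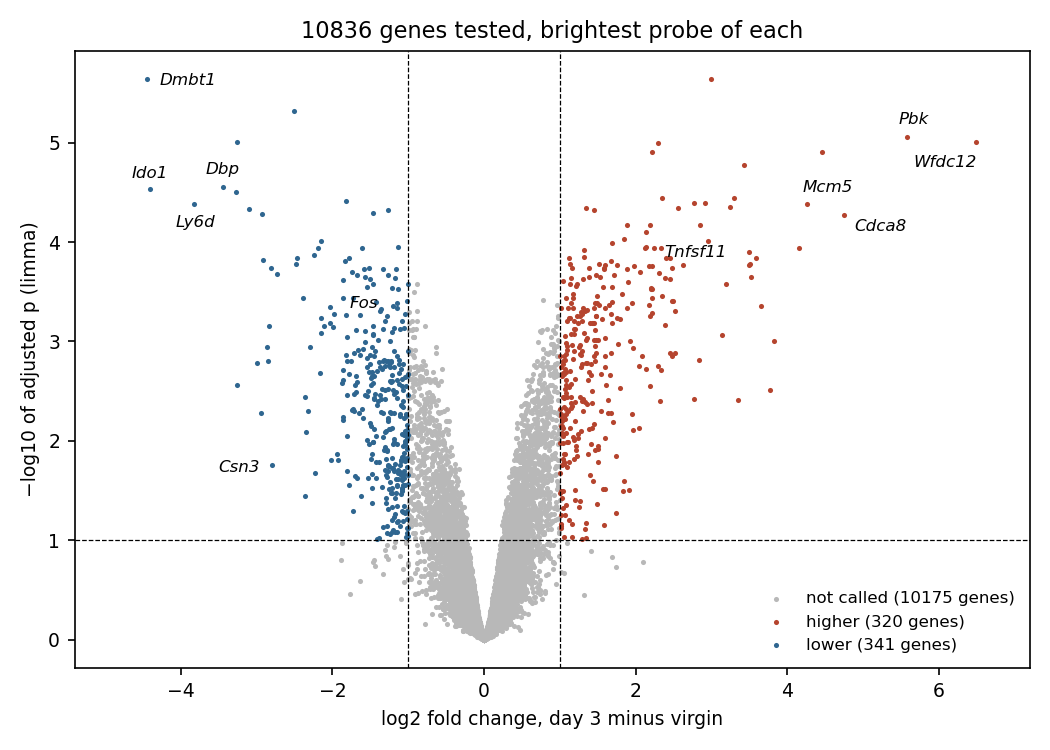
Log2 fold change (day 3 minus virgin, x axis) against −log10 of the adjusted p from limma (y axis) for the brightest probe of each of 10836 genes. Red points are the 320 genes called higher at day 3, blue points the 341 called lower, grey points the rest, and dashed lines mark a fold change of 2 and an adjusted p of 0.10. Wfdc12 and Pbk lie farthest to the right, and Dmbt1 and Ido1 farthest to the left.

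Genes that copy DNA rose together at day 3. Over 4 lists that cover origin licensing, the replication fork, the copying of chromatin and the supply of deoxynucleotides, 41 of 66 tested genes were higher and none was lower, where 2.95% of all tested genes were higher. The median log2 fold change of the 66 genes was 1.30. With each array left out in turn, the fork list alone had 18 to 21 of its 31 genes called.

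Mcm5, a subunit of the MCM helicase that opens the double strand, had log2 signals of 11.85, 11.89 and 11.18 at day 3, against 7.31, 7.17 and 7.64 in virgin. On the log2 scale, used for all differences below, it rose by 4.26 (standard error 0.26, limma adjusted p = 4.2e-05, n = 3 each). Its sister subunit Mcm2 measured 10.12, 9.84 and 9.67 at day 3 and 7.66, 7.46 and 7.08 in virgin. The groups lay far apart in both genes, and the lowest day 3 array stood above the highest virgin array by more than the range within either group. Mcm4, Mcm6 and Mcm7 also rose, by 2.20, 2.45 and 1.97, whereas the remaining subunit gene, Mcm3, lay near background in both groups and was not called (0.11). Of the other licensing genes, Cdt1 and Cdc6, which load the helicase, rose by 2.41 and 1.60, and Mcm10, which helps to start the fork, rose by 3.35. Virgin replicate 1 was high for Mcm10, whose arrays measured 11.18, 11.26 and 10.94 at day 3 and 9.11, 6.85 and 7.37 in virgin, and its 2 dimmer probes were at 0.25 and 0.77 and were not called. In all, 8 of 15 licensing genes were higher, and Orc3, a subunit of the origin recognition complex, was at -0.73 and was not called (adjusted p = 0.26).

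At the fork 21 of 31 genes were higher. Timeless, which shields the fork, measured 10.27, 10.15 and 9.64 at day 3, against 7.64, 6.78 and 7.35 in virgin, a rise of 2.76 (adjusted p = 0.0038). Cdc7, the kinase that fires origins, rose by 2.48, and Pole and Pold1, the polymerases of the leading and the lagging strand, by 2.30 and 2.19. Cdc45, part of the active helicase, lay under a signal of 100 in all 3 virgin arrays and was at least 4.63-fold higher at day 3. Lig1, which seals the fragments of the lagging strand, rose by 1.97. Fen1, the flap nuclease, and Dbf4, the partner of Cdc7, rose by less, 1.02 and 1.14.

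Deoxynucleotide synthesis and the copying of chromatin showed the same direction. Both subunits of ribonucleotide reductase, the enzyme that makes deoxynucleotides, were higher. Rrm2, the subunit that limits its activity, had signals of 10.79, 10.55 and 10.32 at day 3 and 6.71, 7.34 and 6.85 in virgin and rose by 3.59 (standard error 0.28, adjusted p = 0.00014). Rrm1 rose by 2.86. Tk1, the thymidine kinase of dividing cells, had all virgin arrays under 100 and was at least 6.21-fold higher. A dimmer probe of Tk1 was at 0.79 and was not called. Uhrf1, which recruits the DNA methylase to new DNA, measured 10.84, 10.87 and 9.87 at day 3, against 6.90, 7.04 and 7.17 in virgin, and rose by 3.49. Day 3 replicate 3 was the lowest of the day 3 arrays for Uhrf1, Mcm5 and Mcm6, and still stood well above every virgin array. Chaf1b and Hat1, which act on newly made histones, rose by 2.18 and 1.41.

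**Figure D2:**
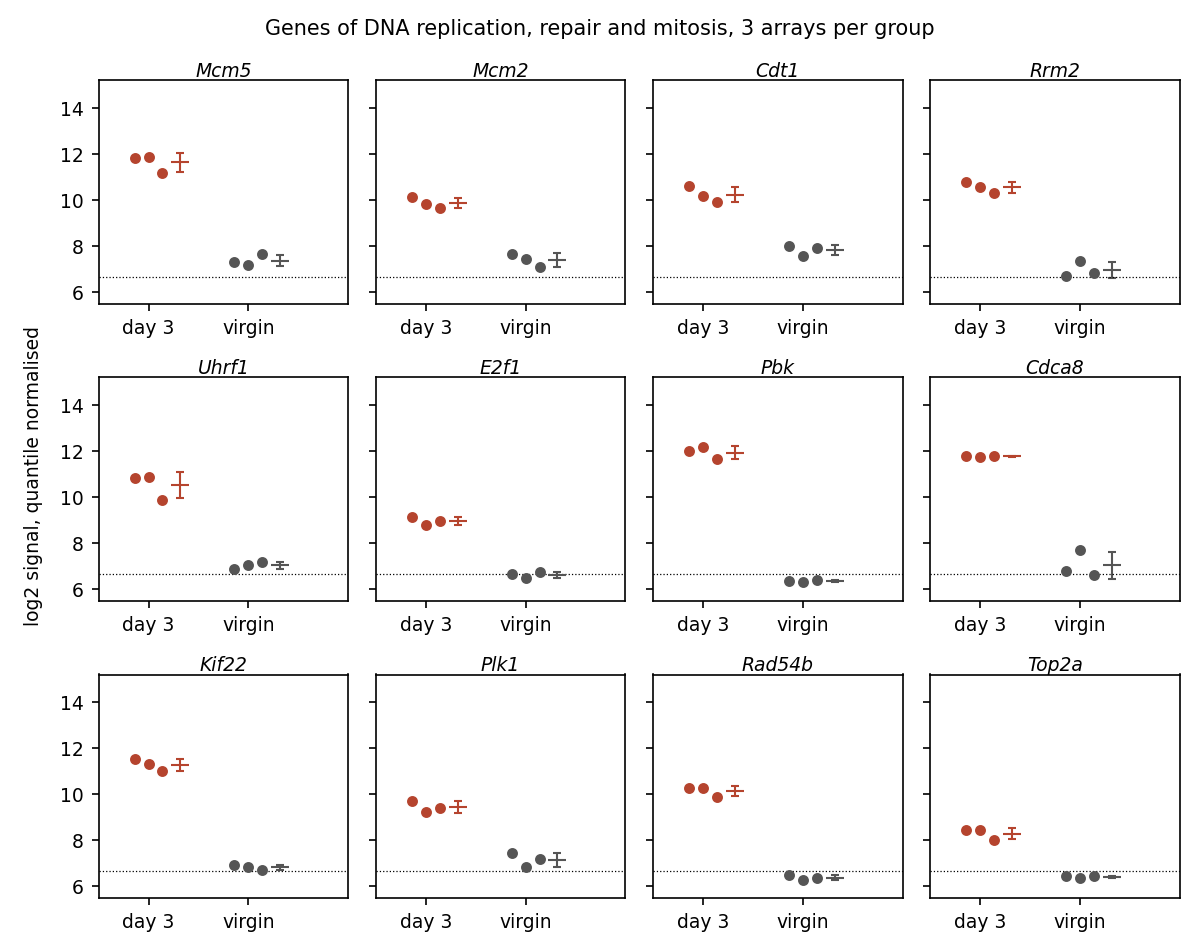
Log2 signal (y axis, quantile normalised) of 12 genes of replication, repair and mitosis in the 3 day 3 arrays (red, left) and the 3 virgin arrays (grey, right). Bars give the mean and SD of 3 arrays and the dotted line marks a signal of 100. In every panel all day 3 arrays lie above all virgin arrays, and for Pbk, Rad54b and Top2a the virgin arrays lie under the dotted line.

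Genes of mitosis rose as well. Of 55 tested genes of 2 lists, mitotic kinases and the kinetochore, spindle and cytokinesis, 31 were higher and 1 was lower. Pbk, a kinase of mitotic cells, measured 12.01, 12.16 and 11.64 at day 3, against 6.37, 6.31 and 6.40 in virgin, where all arrays lay under a signal of 100. It was at least 39.3-fold higher (adjusted p = 8.7e-06 from limma). Cdca8, a subunit of the complex that carries Aurora B to the centromere, measured 11.77, 11.75 and 11.80 at day 3 and 6.77, 7.71 and 6.62 in virgin. The day 3 arrays of Cdca8 nearly coincided and lay far above the highest virgin array. A further probe of Cdca8, near background in both groups, showed 0.10.

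Kif22, a kinesin that pushes chromosome arms, rose by 4.47 (standard error 0.22, adjusted p = 1.3e-05), with 11.53, 11.30 and 11.01 at day 3 and 6.94, 6.82 and 6.69 in virgin. Other spindle genes rose as well: Prc1 and Nusap1, which bundle microtubules, by 3.53 and 3.66, and Spag5, astrin of the spindle pole, by 3.49. At the kinetochore, the centromere histone Cenpa rose by 3.25, Kntc1 of the spindle checkpoint by 3.82, and the checkpoint kinase Bub1b by 3.43. Cdc20, which turns on the destruction of cyclins and securin, measured 11.34, 11.20 and 11.09 at day 3, against 7.89, 7.63 and 8.54 in virgin, and rose by 3.19. Plk1 and Aurka, kinases that drive entry and spindle assembly, rose by 2.30 and 1.68. Cdk1, the kinase that starts mitosis, was dimmer, at 8.07, 8.04 and 7.56 at day 3 and 6.63, 6.54 and 6.68 in virgin, and rose by at least 1.24. The exception was Spc24, a kinetochore linker, which fell by 1.07 on its brightest probe (adjusted p = 0.0040), while a dimmer probe showed 0.30 and no call. Its partner Spc25 was called higher, by at least 1.99-fold, all virgin arrays being under 100. Spc24 lost its call under median scaling (-0.41) and without virgin replicate 1 (-0.86).

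Most promoters of the mitosis genes that rose held a short element. Many genes of late cell cycle carry the cell cycle homology region, which is bound by repressor and activator complexes of the MuvB family. A window of 250 bases before to 50 bases after the start of transcription, from RefSeq on build GRCm38.p6, was listed for 26 of the 31 mitosis genes called higher. The letters of the element, TTTGAA or its reverse complement TTCAAA, stood in 22 of the 26, or 84.6%. Among tested genes with a window the share was 12.1%, among all promoters 18.1%, and among the mitosis genes that were not called higher 7 of 16. In 20 of the 26 a copy lay in the 50 bases before to 50 bases after the start, against 2.91% of all tested genes with a window. Of the 33 replication genes called higher with a window, 18.2% held it. Matches are described as letters only, and no binding was measured. The stretches below end at the base before the start and show where the element lies in 6 genes that rose, with its letters in capitals and each read 5′ to 3′ on the strand of the gene.
Cdc20 (chr4:118437344-118437403, minus strand): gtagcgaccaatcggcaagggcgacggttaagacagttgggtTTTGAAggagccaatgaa
Kif22 (chr7:127042421-127042480, minus strand): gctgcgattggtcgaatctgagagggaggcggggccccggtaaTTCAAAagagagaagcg
Cenpn (chr8:116921680-116921739, plus strand): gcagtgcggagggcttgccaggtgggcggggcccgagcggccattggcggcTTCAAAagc
Kif15 (chr9:122951021-122951080, plus strand): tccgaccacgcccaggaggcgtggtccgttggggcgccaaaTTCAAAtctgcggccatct
Cdk1 (chr10:69352913-69352972, minus strand): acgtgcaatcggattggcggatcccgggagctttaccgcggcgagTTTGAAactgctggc
Top2a (chr11:99024190-99024249, minus strand): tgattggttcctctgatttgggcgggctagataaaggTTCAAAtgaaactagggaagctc

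In these 6 stretches the element nearest the start begins 9 to 23 bases before it. Genes of the S phase are known targets of E2F factors. Any of 4 E2F sites, TTTCCCGC, TTTGGCGC, TTTCGCGC or TTTGCCGC on either strand, stood in 7 of the 33 windows of replication genes called higher, or 21.2%, against 3.83% of all tested genes and 2.32% of all promoters. The replication genes that were not called higher had them in 7 of 24 windows, or 29.2%. Mcm5 and Mcm6 are shown because both rose and hold such letters, in capitals, before the start. The stretch of Mcm5 lies 116 to 175 bases before the start and that of Mcm6 14 to 73 bases before it, each 5′ to 3′ on the strand of the gene. In Mcm5 a site and the reverse of another overlap, so that the capitals run on.
Mcm5 (chr8:75109334-75109393, plus strand): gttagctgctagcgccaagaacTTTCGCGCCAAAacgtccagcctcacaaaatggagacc
Mcm6 (chr1:128359719-128359778, minus strand): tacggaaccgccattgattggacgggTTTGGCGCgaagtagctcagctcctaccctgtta

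Of the genes that repair DNA, 7 of 21 tested in homologous recombination and the Fanconi pathway were higher and none was lower. Rad54b, which remodels the strand exchange filament, measured 10.26, 10.28 and 9.87 at day 3, against 6.49, 6.25 and 6.36 in virgin, all under 100, and was at least 11.3-fold higher (adjusted p = 0.0031). Its paralogue Rad54l rose by at least 2.81, and Blm, a helicase that unwinds crossed strands, by 2.52. Chek2, a checkpoint kinase, was at least 2.33-fold higher, with a standard error of 0.10 on the log2 scale. A dimmer probe of Chek2 was at 0.25 and was not called. Fancd2, a hub of the Fanconi pathway, rose by 1.12, but did not reach a fold change of 2 without day 3 replicate 2 (0.84) or without virgin replicate 3 (0.99). Brca2 was at 0.78 (adjusted p = 0.0020) and missed the fold threshold. In base excision and mismatch repair 3 of 9 genes were higher, among them Ung, which removes uracil from DNA, at 2.21, and Parp1, at 1.63. A dim further probe of Ung was at 0.15 and was not called. Msh6 of mismatch repair rose by 1.06 and lost its call without day 3 replicate 1 (0.97) or virgin replicate 1 (0.79).

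Regulators of the step from G1 to S moved in part. Of 16 tested cyclins, kinases and E2F genes, 4 were higher and none was lower. E2f1, the factor that turns on S phase genes, measured 9.14, 8.80 and 8.98 at day 3, against 6.64, 6.50 and 6.76 in virgin, which is at the background level, and rose by at least 2.33 (adjusted p = 0.00035). Cdk4, the kinase partner of the D cyclins, rose by 1.77, and Tfdp1, the binding partner of the E2Fs, by 1.14. Cyclin D1 (Ccnd1) did not differ beyond its spread, with 12.61, 12.36 and 12.68 at day 3 and 11.93, 12.98 and 12.61 in virgin, and the difference was 0.04 (standard error 0.24).

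Inhibitors of the cycle went the other way, with 4 of 15 lower and none higher. All of the Gadd45 genes, sensors of stress that slow division, fell. Gadd45g measured 11.68, 11.51 and 11.99 at day 3, against 14.20, 14.20 and 14.22 in virgin, and fell by 2.48 (standard error 0.20, adjusted p = 0.00017). Gadd45b and Gadd45a fell by 2.03 and 1.86. Cdkn1a, the kinase inhibitor p21, fell by 1.44, with 9.41, 9.46 and 9.69 at day 3 and 11.56, 10.60 and 10.73 in virgin. Of these, Cdkn1a lost its call under median scaling (-0.75), and dim further probes of Cdkn1a and Gadd45b, at -0.49 and -0.33, were not called, while another probe of Cdkn1a was called at -1.71. In the list of p53 target genes, which leaves out Gadd45a, 2 of 20 tested were lower, Cdkn1a and Trp53inp1, and none was higher. Trp53inp1 was at -1.68 and lost its call under median scaling (-0.98).

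Some genes of the core and linker histones fell, while none rose. Their list was drawn up after the values were seen, and holds every gene of the replication-dependent histone clusters with a named probe. Of 42 tested, 9 were lower and none was higher, with a median log2 fold change of -0.38, or 0.37 under the median of all tested genes. Under median scaling the list stood at 0.01, which was 0.30 under the median of all tested genes in that scaling. These genes are normally read in S phase, and most of their mRNA ends in a stem-loop in place of a poly(A) tail. How far the amplification copied RNA without such a tail was not tested. The values may therefore not follow the whole of the histone mRNA. H2ac18 measured 9.77, 9.61 and 9.94 at day 3, against 11.69, 12.28 and 11.81 in virgin, and fell by 2.15 (standard error 0.15, adjusted p = 9.7e-05). H2bc4 and H1f2, a linker histone, fell by 1.70 and 1.65, and H1f2 was among the brightest, at 12.13, 11.92 and 12.19 at day 3 and 13.13, 14.44 and 13.63 in virgin. H2bc11, H2bc6, H2bc14, H2bc12, H4c11 and H2ac19 fell by 1.02 to 1.49.

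The 33 histone genes that were not called ranged from -0.96 to 0.51. Outside this list, H2az1, a variant laid down outside replication, and H2ax, which marks DNA breaks, rose by 1.30 and 1.46, and H3f3b, also laid down outside replication, was at -0.07 and was not called. Clustered histone genes are near copies of each other, so a probe may also bind RNA of its neighbours, and they count as fewer than 42 independent measurements. Under median scaling 3 histone genes were lower. With each array left out in turn 6 to 10 were lower.

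**Figure D3:**
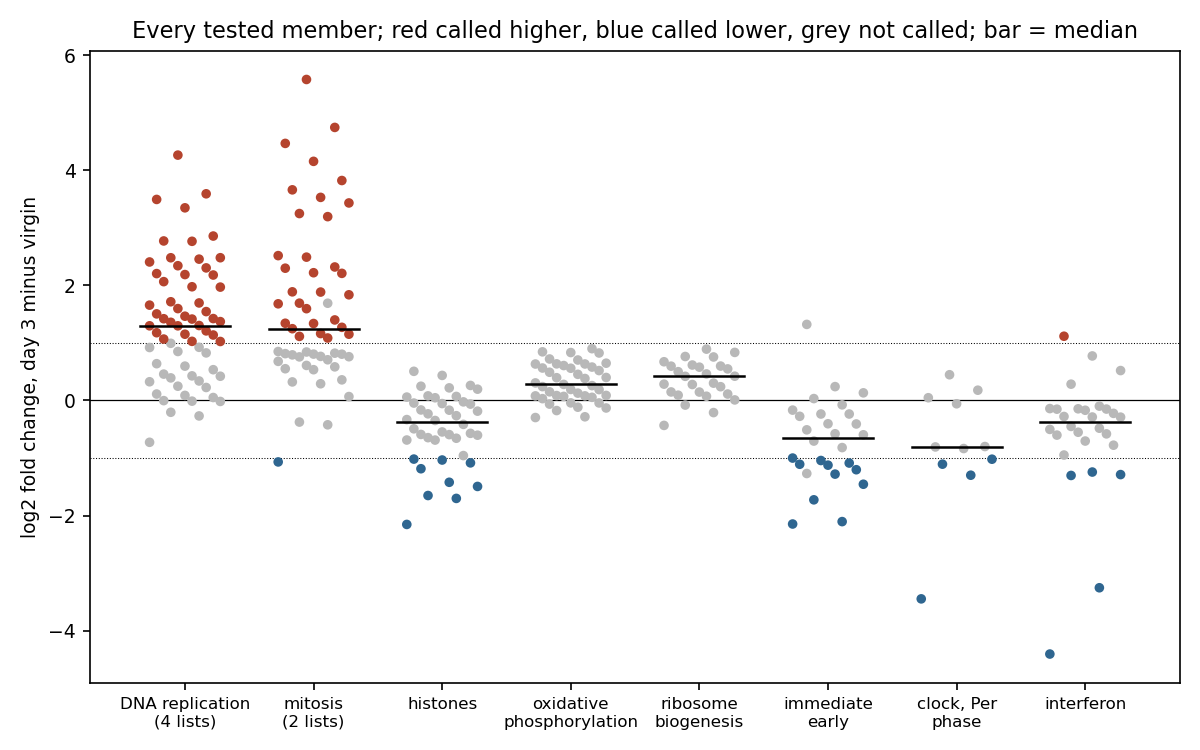
Log2 fold change, day 3 minus virgin (y axis), of every tested member of 8 groups of genes (x axis). Red points were called higher, blue points lower and grey points were not called; the black bar is the median and dotted lines mark a fold change of 2. Replication and mitosis genes have medians of 1.30 and 1.25, histones of -0.38, and the immediate early genes of -0.65.

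Genes of cell growth differed by small amounts. None of 27 genes of ribosome biogenesis reached a fold change of 2, yet 24 were above 0, 10 passed the adjusted p alone, and the median was 0.42. For oxidative phosphorylation 35 of 43 were above 0 with none called and a median of 0.28. These counts rest on the scaling. Under median scaling 12 genes of ribosome biogenesis and 17 of oxidative phosphorylation were called higher, and the medians stood 0.68 and 0.57 above that of all tested genes, against 0.44 and 0.29 here. Over all tested genes 47.8% were above 0 and 13.3% passed the adjusted p upward and 11.2% downward at any fold. Nuclear transport had 7 of 25 genes higher, among them Ndc1 and Nup85 of the nuclear pore, at 1.55 and 1.45, and Ranbp1, a cofactor of the Ran cycle, at 1.43. Of 26 splicing factors 6 were higher, led by Snrpf of the core snRNP at 1.59. Snrpd3, Srsf1 and Prpf3, at 1.08, 1.06 and 1.09, lost the fold change of 2 when 1 array or another was left out. Of 34 proteins of the mitochondrial ribosome, Mrpl12, Mrpl13 and Mrpl34 were higher and 32 were above 0. Mrpl34 lost its call without day 3 replicate 3 (0.972) or virgin replicate 3 (0.9999). Under median scaling 13 genes of nuclear transport, 14 of splicing and 21 of the mitochondrial ribosome were higher.

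Enzymes of serine, glycine and one-carbon metabolism, which supply carbon for nucleotides, were higher in 3 of 10. Gldc, which cleaves glycine in mitochondria, measured 9.46, 9.66 and 9.21 at day 3, against 7.41, 6.44 and 7.46 in virgin, and rose by 2.33 (adjusted p = 0.0019). Psat1 and Mthfd2, of serine synthesis and mitochondrial folate metabolism, rose by 2.04 and 1.60. For both of these virgin replicate 1 was the brightest virgin array, at 8.87 for Psat1 and 11.63 for Mthfd2. The amino acid response genes Asns and Trib3 showed the same array, and their calls, at 1.17 and 1.49, were lost without each of 5 and 4 of the 6 single arrays (0.73 to 1.24 for Asns, 1.07 to 1.45 for Trib3, in part by the adjusted p). With only the 6 arrays compared in the fit, Asns was not called (limma adjusted p = 0.12). In cholesterol synthesis Msmo1 fell by 1.61 and Hsd17b7 rose by 1.04, out of 16 genes tested. The call of Hsd17b7 was lost without day 3 replicate 1, day 3 replicate 2 or virgin replicate 3 (0.69 to 1.00), and that of Msmo1 under median scaling (-0.97). A dimmer probe of Hsd17b7 was at -0.42 and was not called.

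Hormone-related genes of HR+ cells moved in both directions. Tnfsf11, which encodes RANKL, the paracrine signal of progesterone, had signals of 8.64, 8.74 and 9.12 at day 3. In virgin it lay at background, with 6.46, 6.81 and 6.48. It rose by at least 2.19 (adjusted p = 0.00012). Fkbp5, a cochaperone that progestins and glucocorticoids induce, rose by 1.80, with 8.80, 8.65 and 9.28 at day 3 and 6.69, 7.72 and 6.93 in virgin. The progesterone receptor gene Pgr itself fell by 1.18 on its brightest probe, with 8.07, 8.17 and 8.14 at day 3, against 9.08, 9.39 and 9.46 in virgin. Its groups did not overlap. A second, dimmer probe of Pgr was at -0.08, and under median scaling Pgr was at -0.54 and was not called. Esr1, the oestrogen receptor gene, lay near background in both groups and was at 0.08 (standard error 0.15). Foxa1, a pioneer factor for that receptor, was at -0.15.

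Over the whole list of steroid receptors and HR+ identity, 2 of 15 genes were higher and 3 were lower. Wnk4, a kinase that controls ion carriers, and Cited1, a coactivator of the oestrogen receptor, rose by 1.60 and 1.36. A dim further probe of Wnk4 was at 0.40 and was not called. Tbx3, a transcription factor of HR+ cells, fell by 1.81, and Bcl6, a repressor, by 1.05. For Tbx3 the virgin arrays spread widely, at 7.99, 8.63 and 9.67, while day 3 lay at 7.08, 6.95 and 6.84. Dimmer probes of Tbx3 were at -0.07 and -0.79 and were not called. Bcl6 lost its call under median scaling (-0.35) and without virgin replicate 3 (-0.92). Of 12 progesterone targets 2 were higher, Tnfsf11 and Fkbp5, and 1 was lower, Rcan1, an inhibitor of calcineurin, at -1.24, which was at -0.80 under median scaling and was not called. Wnt4, a further paracrine signal, was at -0.43 (adjusted p = 0.28).

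Targets of glucocorticoid and progestin receptors split likewise, with 5 of 17 higher, Fkbp5 among them, and 3 lower. The metallothioneins Mt1 and Mt2, which bind zinc and copper, rose by 1.68 and 1.25, Hif3a by 1.39 and Cebpd, a transcription factor, by 1.43. A dim further probe of Hif3a was at -0.11 and was not called. Mt1 was among the brightest genes of the array, at 14.49, 14.68 and 14.64 at day 3 and 13.41, 12.79 and 12.58 in virgin. Lcn2, a siderophore binder, fell by 1.82, Nfkbia, the inhibitor of NF-kB, by 1.15, and the phosphatase gene Dusp1 by 1.00. Nfkbia and Dusp1 lost their calls under median scaling (-0.47 and -0.50) and without either of 2 single arrays (-0.98 and -0.98 for Nfkbia, -0.94 and -0.95 for Dusp1). In the prolactin and STAT5 list 1 of 11 tested genes was higher and 3 were lower, against 2.95% and 3.15% of all tested genes. Socs2 rose by 1.36, whereas Socs3, also a feedback inhibitor of cytokine receptors, fell by 2.15. Ghr, the growth hormone receptor, fell by 1.22 and the kinase gene Pim3 by 1.14, and neither was called under median scaling (-0.74 and -0.49). Pim3 also lost its call without day 3 replicate 1 (-0.96) or day 3 replicate 2 (limma adjusted p = 0.101).

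**Figure D4:**
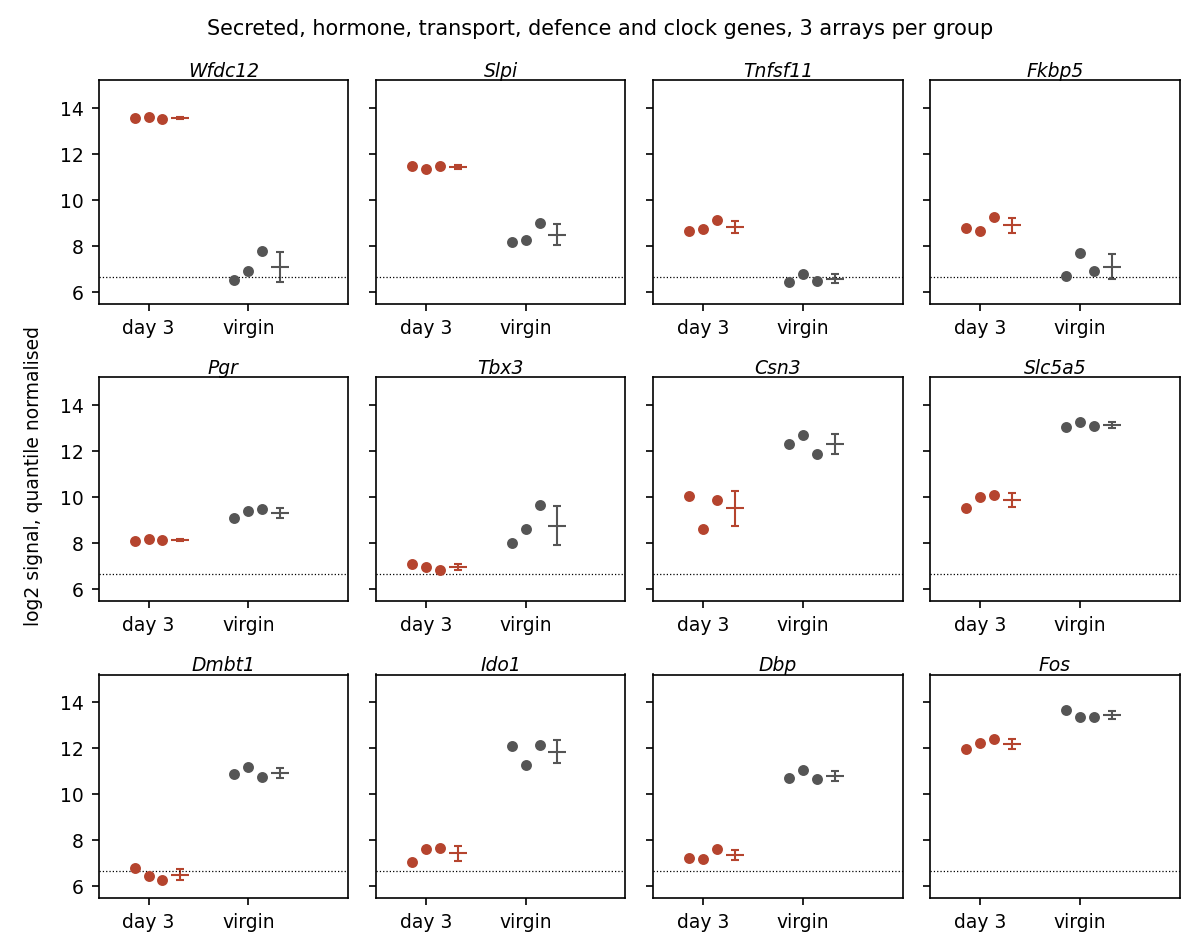
Log2 signal (y axis, quantile normalised) of 12 genes in the 3 day 3 arrays (red, left) and the 3 virgin arrays (grey, right), with mean and SD of 3 arrays. The dotted line marks a signal of 100. Day 3 lies above virgin for Wfdc12, Slpi, Tnfsf11 and Fkbp5 and below it in the other 8 panels, with no overlap in any panel.

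The largest measured rise was in a secreted protease inhibitor, while genes under 100 in virgin, such as Pbk, have only a lower bound. Wfdc12, a small protein with a WAP domain, measured 13.57, 13.63 and 13.52 at day 3, against 6.54, 6.93 and 7.80 in virgin. The day 3 arrays were close to each other, while 1 virgin array was under a signal of 100 and virgin replicate 3 was the highest of them. Wfdc12 rose by 6.48 (standard error 0.29, adjusted p = 9.8e-06 from limma). Slpi, the secretory leukocyte protease inhibitor with the same domain, measured 11.50, 11.34 and 11.49 at day 3 and 8.18, 8.28 and 9.02 in virgin and rose by 2.95. Of the 6 tested genes with this domain these were the only ones called. Wfdc2 was at -0.83 and Wfdc15b at 0.89, both under a fold change of 2.

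No milk gene was called higher at day 3. Of 11 tested milk protein and fat globule genes 3 were lower. Csn3, kappa-casein, measured 10.05, 8.62 and 9.85 at day 3, against 12.31, 12.72 and 11.87 in virgin, and fell by 2.79 (standard error 0.63, adjusted p = 0.018). Btn1a1, butyrophilin of the fat globule membrane, measured 8.03, 6.73 and 6.68 at day 3 and 9.61, 10.88 and 9.78 in virgin. Day 3 replicate 1 stood above the other day 3 arrays for Btn1a1, and the groups still did not overlap. Mfge8, also of the fat globule, was at -1.01, at the edge of the threshold, and lost its call under median scaling (-0.54) and without each of 4 single arrays (-0.91 to -0.97). Csn3 is also a marker of HR- luminal cells. Of 9 tested markers of those cells Csn3 alone was called, and 3 were above 0. Ltf was at -1.64, with 9.85, 8.23 and 6.87 at day 3 and 10.30, 10.71 and 8.85 in virgin. Under Cyber-T Ltf was called lower (Cyber-T adjusted p = 0.020). Hey1 was at -0.98 without overlap of the groups (limma adjusted p = 0.060), just short of a fold change of 2. Without virgin replicate 1 Hey1 was called lower (-1.39). The summed signal of all 14 genes of the list was 7153 to 8719 on the day 3 arrays, against 9956 to 17390 on the virgin arrays, and without Csn3 it was 6760 to 7793 at day 3 and 6215 to 12310 in virgin, where the groups overlapped. Lypd3, the brightest of them, measured 12.23, 12.33 and 12.65 at day 3 and 13.20, 11.86 and 12.11 in virgin. Of the 14 genes, 7 at day 3 and 6 in virgin had a mean under 100. Elf5 and Kit, which define HR- cells, were dim in both groups, at 6.71, 6.44 and 6.76 and 6.81, 6.66 and 6.43 at day 3, against 6.86, 7.08 and 6.61 and 6.54, 7.64 and 7.15 in virgin. The part of HR- cells in these results was not tested.

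Ion and water carriers fell in 4 of 23 tested and rose in 1, the kinase gene Wnk4 above. Over all tested genes 3.15% were lower and 2.95% higher. Slc5a5, the sodium iodide symporter that brings iodide to milk, measured 9.53, 9.99 and 10.10 at day 3, against 13.06, 13.28 and 13.08 in virgin. It fell by 3.27 (standard error 0.18, adjusted p = 3.2e-05), and its second, dimmer probe was at -0.69 and was not called. The water channel gene Aqp5 fell by 2.38, with 8.63, 8.68 and 9.06 at day 3 and 10.93, 11.70 and 10.88 in virgin. Fxyd2, a modulator of the sodium pump, fell by 2.18, and Slc24a3, a sodium and calcium exchanger, by 1.59, the last not called under median scaling (-0.95). A dim further probe of Fxyd2 was at -0.26 and was not called. Gpx3, a secreted glutathione peroxidase, fell by 2.24, while Prdx4, a peroxidase of the endoplasmic reticulum, rose by 1.54.

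Among secreted signals 1 of 30 growth factor ligands was higher (3.33%) and 4 were lower (13.3%), against 2.95% and 3.15% of all tested genes. Mdk, the heparin-binding factor midkine, measured 10.29, 10.04 and 9.53 at day 3, against 7.53, 8.04 and 7.66 in virgin, and rose by 2.21 (adjusted p = 0.00051). Stc2, the secreted stanniocalcin, measured 10.64, 10.38 and 10.84 at day 3 and 12.76, 14.04 and 14.04 in virgin, and fell by 2.99. Nrg4, a ligand of the ErbB4 receptor, fell by 2.36, and the Wnt ligand genes Wnt7b and Wnt5a fell by 1.59 and 1.25, but not under median scaling (-0.89 and -0.56). Dimmer probes of Nrg4 and Wnt7b were at -0.30 and -0.14, those of Wnt5a at -0.15 and -0.46, and none was called. In the IGF axis Igfbp5, a binding protein, fell by 1.42, with dimmer probes at -0.32 and -0.28, and under median scaling it was at -0.76. Igf2 measured 7.48, 7.54 and 7.77 at day 3 and 6.62, 6.85 and 6.43 in virgin. Its groups did not overlap, and at 0.97 (adjusted p = 0.0052) it stood just under a fold change of 2, which it passed under median scaling (1.22). Igfals, which stabilises IGFs in serum, was at 0.95 (adjusted p = 0.041), likewise under the threshold, and at 1.55 under median scaling.

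Immediate early genes, which respond within minutes to growth signals, were lower in 11 of 28 tested, and none was higher. The median of the 28 was -0.65. Fos measured 11.94, 12.20 and 12.39 at day 3, against 13.66, 13.35 and 13.36 in virgin, and fell by 1.28 (standard error 0.14, adjusted p = 0.00055). The changes of Fosb, Jun and Atf3 were similar in size, at -1.20, -1.12 and -1.11. Klf4 and Klf2, zinc finger factors, fell by 2.11 and 1.46. All of these were well above background in both groups. Under median scaling 2 of the list were lower, Klf4 and Socs3, and Fos and Klf2 were at -0.74 and -0.75 and were not called, and with single arrays left out 7 to 12. Heat shock genes, a separate list of 11, had 1 gene lower, Dnajb1 at -1.02, and that call was lost without each of 4 single arrays and under median scaling (-0.56).

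Of 11 clock genes of the phase of the Per genes, 4 fell and none rose. Dbp, a factor whose level swings over the day, measured 7.24, 7.19 and 7.61 at day 3, against 10.69, 11.04 and 10.67 in virgin, and fell by 3.45 (standard error 0.19, adjusted p = 2.8e-05). Tef, of the same family, fell by 1.11, Nr1d1, a repressor of the clock loop, by 1.30, and Per2 by 1.02. The rest were not called. Among them Per1, Cry2 and Bhlhe40 were at -0.84, -0.81 and -0.80, under a fold change of 2 with adjusted p of 0.022, 0.0078 and 0.014. Of the genes of the opposite phase 2 were bright enough to test and neither was called. Dbp kept its call under median scaling, and Tef, Nr1d1 and Per2 did not (-0.40, -0.88 and -0.48). Tef also fell short without day 3 replicate 1 (-0.91) and Per2 without day 3 replicate 3 (-0.91) or virgin replicate 2 (-0.95). Of the other probes of Per2, 1 was called at -1.13 and a dim one was at 0.13. The hour of harvest is not given in the sources used here.

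Interferon-stimulated genes were lower in 5 of 28 and higher in 1, against 3.15% and 2.95% of all tested genes. Ido1, which breaks down tryptophan, measured 7.06, 7.61 and 7.64 at day 3, against 12.11, 11.27 and 12.15 in virgin, and fell by 4.41 (standard error 0.24, adjusted p = 2.9e-05). Rsad2, an antiviral enzyme, fell by 3.26, with a wide spread in both groups, 7.74, 7.64 and 8.67 at day 3 and 10.34, 11.12 and 12.36 in virgin. Gbp2, Parp14 and Znfx1 fell by 1.24 to 1.30 and lost their calls under median scaling. Ifitm3, a membrane protein that blocks viral entry, rose by 1.12, but after cyclic loess it was at 1.00, just short of a fold change of 2, and was not called. Tap2, a pump that loads peptide for MHC class I, fell by 1.67 and was at -0.95 under median scaling.

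Genes of mucosal defence were lower in 7 of 17 and higher in 1. Dmbt1, a scavenger receptor secreted by epithelia, measured 6.77, 6.42 and 6.29 at day 3, against 10.86, 11.18 and 10.76 in virgin. Its day 3 mean lay under a signal of 100, and it was lower by at least 4.29 (adjusted p = 2.3e-06). Ang4, an antimicrobial ribonuclease, fell by 2.92, with 8.36, 8.70 and 7.89 at day 3 and 11.58, 11.10 and 11.04 in virgin. Sftpd, a lung and mucosal collectin, rose by 1.61. Lyz1, lysozyme, fell by 2.23, and its virgin arrays spread from 7.92 to 10.39. Lyz1 and Lyz2 are also macrophage genes. In the macrophage and dendritic list 3 of 7 tested markers were lower, Lyz1, Lyz2 and Cd74, and the summed signal of its 15 genes was 1437 to 1493 on the day 3 arrays and 1740 to 3375 on the virgin arrays. Of those 15 genes 10 had a mean under 100 at day 3 and 8 in virgin, and Csf1r and C1qb, defining markers, were dim in both groups and were not called. Cd74 lost its call without each of 3 single arrays (-0.79 to -0.99) and under median scaling (-0.75). Lyz2 lost its call without each of 4 single arrays, by the adjusted p (0.14 to 0.15) for each day 3 array and by the fold (-0.69) for virgin replicate 3, and under median scaling (-0.99). With only the 6 arrays compared in the fit, Lyz2 was not called (limma adjusted p = 0.11). The part of macrophages in the falls of the lysozyme genes was not tested.

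Of the 20 cytokines and chemokines 1 was higher, Tnfsf11, and 4 were lower, against 2.95% and 3.15% of all tested genes. Cxcl15 and Cxcl17, chemokines of mucosal epithelia, fell by 1.78 and 1.46, with 7.30, 7.08 and 7.36 for Cxcl15 at day 3, against 9.17, 9.12 and 8.79 in virgin. Ccl4, a chemokine outside the list, lay under a signal of 100 on all day 3 arrays and was at least 6.43-fold lower. A further probe of Ccl4, near background in both groups, was at -0.24 and was not called. Il33, an alarmin of epithelia, measured 10.75, 11.29 and 10.97 at day 3 and 11.50, 9.75 and 10.65 in virgin and was at 0.37, not called, although under median scaling it reached 1.04 and was called higher. Cxcl16 and the receptor gene Il17re, the remaining lower members, fell by 1.15 and 1.01 and lost their calls under median scaling (-0.43 and -0.41). Cxcl16 also lost its call without day 3 replicate 3 (-0.96) or virgin replicate 1 (-0.81). That of Il17re was lost without day 3 replicate 1 or 3 or virgin replicate 2 or 3 (-0.92 to -0.99).

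On these arrays, markers of the label were present in part. From qPCR on sorted cells, the paper reports that this gate holds the HR+ cells and is free of Elf5-expressing HR- cells. Krt8 and Krt18, keratins of all luminal cells, were bright, at 14.27, 14.23 and 14.19 at day 3 and 14.80, 14.22 and 14.36 in virgin for Krt8. Of genes closer to HR+ cells, Foxa1 measured 10.27, 10.19 and 10.04 at day 3 and 10.28, 10.28 and 10.38 in virgin, and Pgr was above background in both groups, whereas Esr1 and Prom1 lay near background, with Prom1 at 6.80, 6.63 and 6.72 at day 3 and 6.64, 7.01 and 6.99 in virgin. The HR- markers Csn3 and Lypd3 were bright as well, as given above. Of the 14 HR+ markers listed 10 had a named probe, and of these 2 were higher and 1 lower. Prlr, Ly6a, Areg and Calca had no probe named in the annotation used. Basal markers were uneven. Krt17, a keratin of basal cells, rose by 2.83 (adjusted p = 0.0015), while Krt14 measured 9.77, 7.24 and 7.34 at day 3 and 9.18, 6.98 and 6.75 in virgin, high on replicate 1 of each stage. Acta2 measured 11.07, 7.47 and 7.33 at day 3 and 9.13, 9.27 and 7.52 in virgin, with its highest array also at day 3 replicate 1. The summed signal of the 13 basal markers was 1892 to 5201 at day 3 and 1299 to 2226 in virgin, and 7 of them at day 3 and 8 in virgin had a mean under 100. Without day 3 replicate 1 Krt17 was still higher (2.67). Hba-a1, a haemoglobin gene of red cells, rose by 2.45, with 9.26, 9.91 and 9.85 at day 3 and 7.30, 7.30 and 7.07 in virgin, and the other erythroid markers tested, Hbb-bs and Alas2, were at -0.01 and -0.24. No tested marker of fibroblasts, endothelial cells, adipocytes or lymphocytes was called by limma at a fold change of 2. Their part in the results was not tested.

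Several of the largest changes belong to none of these groups. Ly6d, a surface protein of luminal cells, measured 9.25, 9.15 and 9.01 at day 3, against 13.01, 12.91 and 12.94 in virgin, and fell by 3.82 (standard error 0.23, adjusted p = 4.2e-05). The kinesin gene Kif5c, a motor of cargo transport and not of mitosis, fell by 2.93, with 9.14, 9.38 and 9.28 at day 3 and 12.04, 12.29 and 12.25 in virgin. Tmed3, of the vesicles between endoplasmic reticulum and Golgi, fell by 3.11, the cytochrome gene Cyp3a57 by 3.26, Tmem86a by 2.85 and the sulphotransferase gene Chst8 by 2.83. On the other side Fmo1, a flavin monooxygenase, rose by 3.51, with 11.49, 11.34 and 11.39 at day 3 and 7.40, 7.89 and 8.40 in virgin. Of the Bcl2 family, 1 of 12 tested genes was called, where 6.1% of all tested genes were called in either direction. Bok, which promotes cell death, rose by at least 2.34 over a virgin mean under 100.

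**Figure D5:**
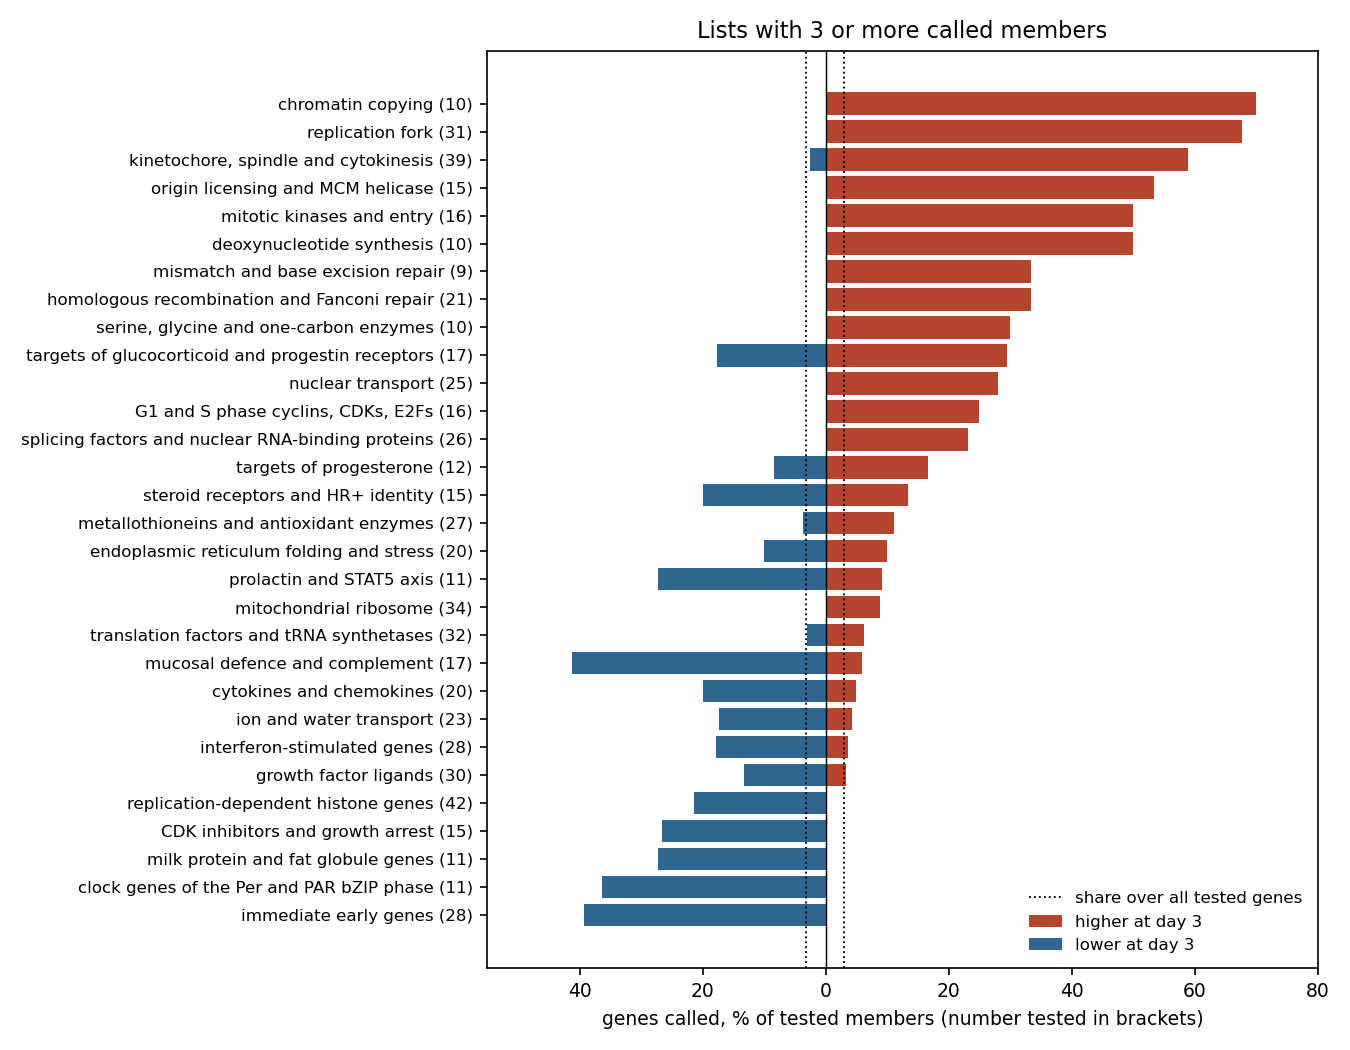
Share of the tested members of each list called higher (red, right of 0) or lower (blue, left of 0) at day 3, in percent, for the function lists with 3 or more called members and for the histone genes. Lists of cell type markers are not drawn. The number tested stands in brackets and dotted lines mark the shares over all tested genes, 2.95% higher and 3.15% lower. Chromatin copying and the replication fork lead upward at 70.0% and 67.7%, and mucosal defence and the immediate early genes downward at 41.2% and 39.3%.

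The 3 arrays of day 7 entered the fit through the spread of each probe but not the difference of day 3 and virgin. They share the virgin arrays with any comparison of their own, so their levels are given side by side only. Pbk measured 6.37, 6.31 and 6.40 in virgin, 12.01, 12.16 and 11.64 at day 3 and 8.75, 9.24 and 8.18 at day 7. Mcm5 measured 7.31, 7.17 and 7.64 in virgin, 11.85, 11.89 and 11.18 at day 3 and 9.11, 9.90 and 9.18 at day 7. For both genes the day 7 arrays lay between those of the other stages. Tnfsf11 measured 6.46, 6.81 and 6.48 in virgin, 8.64, 8.74 and 9.12 at day 3 and 10.62, 10.85 and 10.39 at day 7, where all arrays lay above those of day 3.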

How the data were processed

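HR+ cells were sorted from 3 virgin, 3 day 3 and 3 day 7 mice and hybridised to 1 Illumina Mouse WG-6 v2.0 array per animal. The authors quantile normalised the arrays and deposited log2 values of 45281 probes, used here for the tests. They also deposited linear intensity values without normalisation, used for array means and alternative normalisations. Which arrays shared a chip is not given in the sources used here, so a chip effect was not tested. Of the probes, 34885 had 1 gene symbol in the platform annotation, 18 several and 10378 none.

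Probes whose day 3 or virgin mean reached a signal of 100 were fitted in limma 3.58.1 (R 4.3.3) with all 9 arrays and the contrast day 3 minus virgin. P-values were adjusted by Benjamini and Hochberg over the 17755 tested probes. A gene was called on its brightest tested probe, by its mean over the 6 arrays compared, at a fold change of 2 and an adjusted p of 0.10. Where the mean of a group lay under 100, the fold is a lower bound against that level. The fit was tested on simulated data. Named were the 15 largest non-overlapping changes in each direction, up to 5 called members per list and direction with some that were not called, genes the study names for day 3, and markers. Further genes of a list were named after their values were seen. The members and gene lists were chosen with earlier results of these data known, and the histone list after its values were seen. Promoters are RefSeq windows of 250 bases before to 50 after the start (GRCm38.p6), listed for 8762 of the tested genes, 262 of those called higher and 254 of those called lower. Motifs were searched on both strands. Alternatives covered the normalisation, filters, the samples in the fit, Cyber-T, array weights, the replicate block, thresholds and each array left out in turn.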

Additional observations from a re-analysis of the deposited data

How the results depend on the processing

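With each array scaled to the same median, 1521 genes were higher at day 3 and 90 lower, and with no minimum fold change 1445 were higher and 1210 lower. The other settings, among them another quantile normalisation, cyclic loess, other filters on dim probes, the 6 arrays alone, Cyber-T, array weights and an adjusted p of 0.05, gave 288 to 335 higher and 313 to 377 lower genes, within 1.5 times of the 320 and 341 reported. With each of the 9 arrays left out in turn, 291 to 350 were higher and 312 to 370 lower, and at least 275 of the 320 and 279 of the 341 stayed called. Array numbers are shared between stages but name different animals, and same-numbered arrays did not deviate together (r of -0.03 to -0.05). With the replicate block 318 were higher and 341 lower, 317 and 335 of them the same genes, and the block changed no call of a gene named here. Of 156 named genes that were called, 31 lost the call without 1 array or another and 37, all lower at day 3, under median scaling, while none changed sign. The cause of the shift under median scaling was not tested. Set against the median of all tested genes, which that scaling moves upward, milk, growth factor and ion transport genes stayed below it, by medians of -0.26, -0.20 and -0.12 here and -0.20, -0.15 and -0.19 under median scaling. Other lists did not stay below it. Lysosome and autophagy genes stood at -0.15 here and 0.18 under median scaling, and endoplasmic reticulum stress genes at -0.11 and 0.15. Metallothioneins and antioxidant enzymes moved from -0.05 to 0.20, and the Notch pathway from -0.01 to 0.04. The junction genes shrank from -0.31 to -0.06. Genes near a signal of 100 have only a bound of their fold, and 3 animals a group limit the precision.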

Other observations

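Of the genes called higher, 120 had another tested probe, and in 95 of them at least 1 such probe was not called. These other probes were dimmer, with a median log2 signal of 7.17 against 9.11 for the brightest probes of the same genes, and 132 of 158 had the same direction. Among the genes called lower, 104 of 138 had another tested probe that was not called, and 155 of 178 such probes had the same direction. No gene had probes called in opposite directions. Probes without a gene name were called too, 45 higher and 49 lower.

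The lists not described above held few calls. In the endoplasmic reticulum stress list 2 of 20 tested genes were lower, Dnajb9 and Ern1 (the IRE1 sensor) at -1.36 and -1.23, and 2 were higher, Trib3 and Asns. A dimmer probe of Ern1 was at 0.37 and was not called. Of 32 translation factors and tRNA synthetases, Eprs and Aars were higher at 1.50 and 1.04 and Wars was lower at -1.16. A dim further probe of Eprs was at -0.12 and was not called. Itgav, an integrin chain, was lower at -1.47 and Lamc1, a laminin chain, higher at 1.01, of 14 tested. Dimmer probes of Itgav were at -0.12 and 0.12 and were not called. Single genes passed among 18 cytosolic chaperones (Fkbp4 at 1.15), 22 proteasome genes (Psme3 at 1.10), 31 lysosome and autophagy genes (Ctsh at -1.05) and 15 junction genes (Cldn4 at -1.09). Under median scaling all 6 lower genes of this paragraph lost their calls, with Dnajb9 at -0.64, Ern1 at -0.52, Wars at -0.44, Itgav at -0.83, Ctsh at -0.34 and Cldn4 at -0.58. Aars, Lamc1, Ctsh, Cldn4 and Wars also lost them without 1 array or another. By limma at a fold change of 2, none of the 15 glycolysis genes, 16 fatty acid and triglyceride genes, 14 amino acid and sugar carriers or 10 Notch pathway genes was called in either direction. At the adjusted p alone 4 of the glycolysis genes were higher and 3 lower, and of the fatty acid genes 4 were higher and 2 lower.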
